A study of Apostichopus japonicus with 9 samples.

Results

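The microRNA (miRNA) families miR-1, miR-133 and miR-143, known for their abundance in muscle, were followed in gut tissue of the sea cucumber Apostichopus japonicus under heat stress. Every name of these families in the deposited tables was taken, by name and not by value: 6 miR-1 names, 1 miR-133 name and 2 miR-143 names, 9 of 409 names in all. Small RNA was sequenced from intestine tissue of animals weighing 100 to 120 g. The control animals had normal treatment, with no temperature or time given, and the heat animals were under heat stress at 26 °C for 6 h or for 48 h. Each of the 3 groups had 3 libraries, 1 per individual, no strain, sex or age is given in the sources used here, and the same control group served both times. A name is that of the known miRNA which the authors matched, so a vertebrate name does not show that the sea cucumber has that gene.

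miRNAs are short RNAs that pair with messenger RNAs and lower their translation or stability. miR-1 is among the oldest animal miRNAs and is abundant in muscle from flies to mammals, where in mice it lowers the histone deacetylase HDAC4 and so favours muscle differentiation. miR-133 is made from the same primary transcripts as miR-1 in many animals and in mice lowers serum response factor. miR-143 is known from vertebrate smooth muscle, where in mice it acts with its neighbour miR-145 on the smooth muscle switch genes Elk1 and Klf4. The gut wall of a sea cucumber carries muscle layers beside epithelium and nerves. In tissue RNA, fewer muscle cells and less miRNA per muscle cell cannot be told apart.

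The tables give a read count summed over the 3 libraries of a group and the authors' group mean, with no value per animal. The mean is taken as RPM (reads per M reads of the library total, M for mega), a unit inferred from the values. What that total counts is not stated. Count and mean together still hold part of the spread between libraries, since the ratio of reads to summed RPM is a weighted mean of library totals. The totals recovered this way ran from 54.4 to 145 M reads, and each library below is named by its total, since the columns do not tie it to an animal. Levels under 20 RPM in a library appear to have been set to 0: the smallest level among names read in 1 library was 20.01 RPM, and no name read in 2 or more libraries had a summed level under 40 RPM. All 16 group values with sums from 40 to 60 RPM could be written as exactly 2 libraries at or above 20 RPM. A listed 0 is therefore read as under 20 RPM in every library of the group, and this floor is inferred from the values.

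After 48 h at 26 °C the abundant miR-1 names stood at 2.48 times their control level. The name miR-1a-3p, the leading name of the family and the usual guide strand of miR-1, had a mean of 7181 RPM in the control and 17821 RPM at 48 h. The ratio of means was 2.48, a log2 ratio of 1.31. miR-1-3p went from 6993 to 17338 RPM and miR-1c from 6987 to 17326 RPM, each at a ratio of 2.48. miR-1c-3p, a much scarcer name, had 78.4 RPM in the control and 165.7 RPM at 48 h, a ratio of 2.11. These 4 names have values for the control and 48 h, and their 6 h level was not analysed here.

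**Figure D1:**
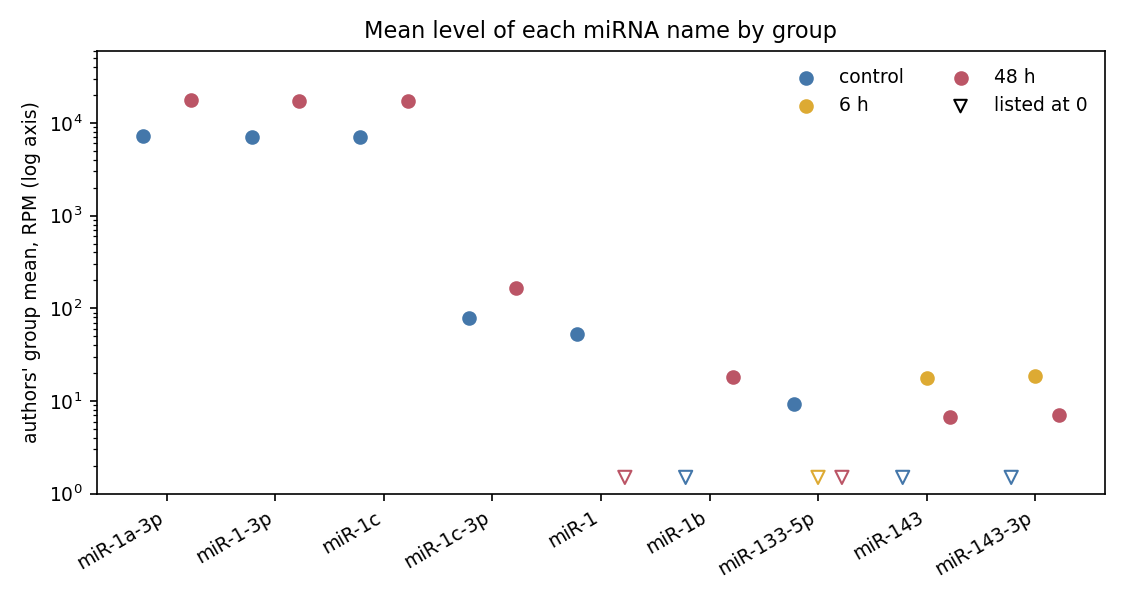
Authors' group mean of each of the 9 names in RPM on a log axis, by group (1 mean of 3 libraries per point, no error can be given); open triangles are groups listed at 0 and are drawn at an arbitrary low level. The 3 abundant miR-1 names lie at 6987 to 7181 RPM in the control and at 17326 to 17821 RPM at 48 h, while miR-133-5p and the miR-143 names stay under 20 RPM.

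The 3 abundant names are close to 1 measurement. The read count of miR-1-3p was 97.4% of that of miR-1a-3p in the control and 97.3% at 48 h, and the counts of miR-1-3p and miR-1c differed by 0.084% and 0.073%. Where counts differed by no more than 15% in control and heat, names were taken to share reads, so these 3 count as 1 miRNA. In the control they ranked 4, 5 and 6 by mean level among the 202 listed names with reads, and at 48 h they ranked 4, 5 and 6 among 194. miR-1a-3p alone took 0.667% of the pooled control reads and 1.66% of the pooled 48 h reads. miR-1c-3p reads came to 1.04% of the miR-1a-3p count in the control and 0.931% at 48 h.

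In the authors' deposited table the log2 ratio of miR-1a-3p was 1.32, that of miR-1-3p and of miR-1c 1.32 each and that of miR-1c-3p 1.15, all with a q-value entered as 0. Such q-values come from pooled reads. At 2305362 and 3866801 reads the 95% counting interval of the miR-1a-3p log2 ratio (exact Clopper-Pearson on the pooled counts) was 1.316 to 1.321, and it covers counting error only. No test over animals could be run, since no value per library is given.

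What the count and the mean allow for single libraries differed between groups. At 48 h the deepest library, with 113 M reads, must have held between 10854 and 14418 RPM of miR-1a-3p. That is 1.51 to 2.01 times the control mean. The other 48 h libraries, with 57.2 and 61.9 M reads, averaged between 19522 and 21304 RPM, or 2.72 to 2.97 times the control mean, but how they divided that level is not fixed by the columns. At least 1 of the 48 h libraries held 20381 RPM or more. In the control the deepest library, with 145 M reads, held at most 6236 RPM, and the library with 91.6 M reads between 2531 and 15309 RPM. The control library with 109 M reads could lie anywhere from 0 to 19013 RPM.

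The deepest 48 h library thus held at least 1.74 times the miR-1a-3p level of the deepest control library. Whether the groups overlapped is not settled by the columns. The lowest 48 h library could be as high as 13304 RPM and the highest control library as low as 9156 RPM, which would leave no overlap. Other divisions of the same count and mean put the 48 h library of 61.9 M reads at 42608 RPM, and the mean of the others would then be 5427 RPM, below the control mean of 7181 RPM. For miR-1a-3p the coefficient of variation between libraries was at least 45.1% in the control and at least 24.7% at 48 h.

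**Figure D2:**
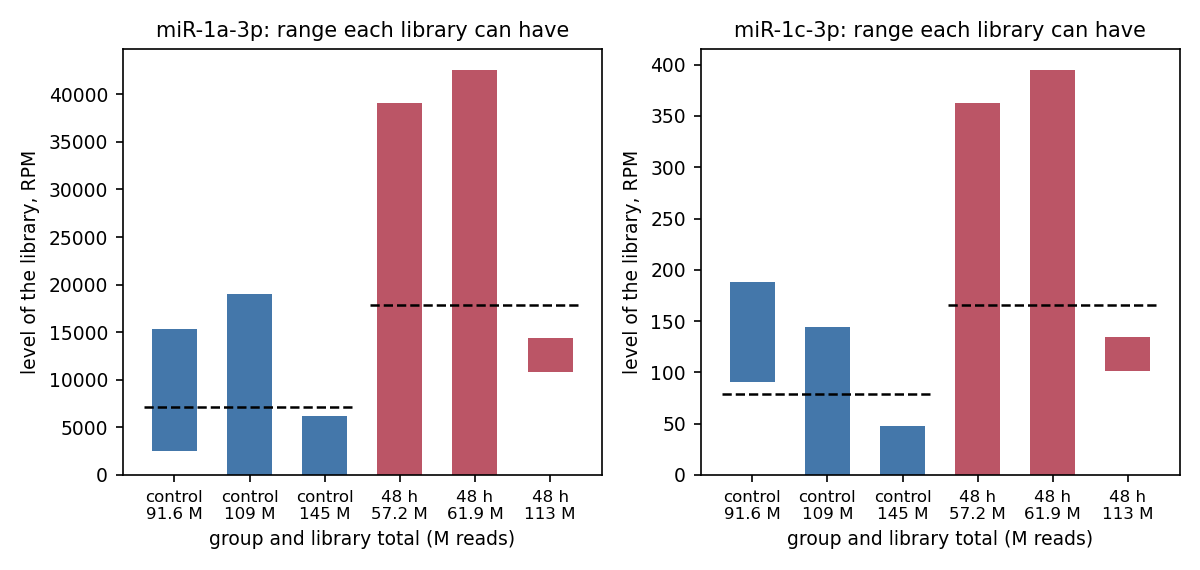
Range of levels in RPM that each library can have, given the pooled count and the group mean, for miR-1a-3p (left) and miR-1c-3p (right) in the control and at 48 h; bars span the lowest to the highest level allowed, libraries are named by their total, and dashed lines are the authors' group means. The 48 h library of 113 M reads is held to 10854 to 14418 RPM of miR-1a-3p, above the 6236 RPM that is the most the control library of 145 M reads can hold.

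miR-1c-3p had a similar division at 48 h and a different one in the control. Its level in the 48 h library of 113 M reads lay between 101.8 and 134.8 RPM. In the control the library of 91.6 M reads must have held 91.0 to 188 RPM, above the group mean of 78.4 RPM, and the library of 145 M reads at most 47.3 RPM. Between the deepest libraries miR-1c-3p was at least 2.15-fold higher at 48 h. If the control had 1 library just under the 20 RPM floor, the ratio of miR-1c-3p would be 1.95, under 2-fold, whereas that of miR-1a-3p would stay at 2.48.

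The deepest library lay below its group mean for more names than these. At 48 h it must lie below the mean for 43 of the 76 listed names read in 2 or more libraries and above it for 29. In the control the deepest library must lie below the mean for 31 of 75 and above it for 22. The miR-1a-3p level of the deepest 48 h library was 0.609 to 0.809 of its group mean. The part of library depth in the miR-1 result was not tested.

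The other miR-1 names were scarce, and only the name miR-1 was listed in the opposite direction to miR-1a-3p. This name, with no arm given, had 14670 reads in the control and none at 48 h. All of its control reads came from the library of 91.6 M reads, at 160 RPM, and both other control libraries and all 3 libraries at 48 h were under 20 RPM. Its control mean of 53.4 RPM is at least 2.67 times a 48 h level at the floor. Without that library miR-1 would be listed at 0 in both groups. That library alone held the reads of 80 of the 127 names read in 1 control library, and its part in the result was not tested.

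miR-1b, another miR-1 variant name, was listed as higher at 48 h, like miR-1a-3p. It was listed at 0 in the control and had a mean of 18.0 RPM at 48 h. With the floor, its 3235 reads divide in 1 way only, as 23.6 RPM in the 48 h library of 57.2 M reads and 30.5 RPM in that of 61.9 M reads, with the library of 113 M reads under 20 RPM. Control levels just under the floor would lie close to these, and the mean of 18.0 RPM is 0.901 times a control held at the floor. The authors' deposited table gave log2 ratios of -14.27 for miR-1 and 13.23 for miR-1b. Those sizes rest on the 0.5 reads that stand in for 0, and give no bound on the change.

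miR-133-5p, the arm of the miR-133 precursor that is usually the less abundant strand in vertebrates, was the lowest in the control among the names of these families with reads there. It had 3050 reads and a mean of 9.32 RPM in the control and was listed at 0 at both 6 h and 48 h. All control reads came from the library of 109 M reads, at 28.0 RPM, and the other 8 libraries were under 20 RPM. miR-1 and miR-133-5p were thus read in different control libraries. The library of 109 M reads was the only source of reads for 12 names, against 80 for the library that held miR-1. The lower call at both times shares this 1 control value. Without the library of 109 M reads miR-133-5p would be listed at 0 in all 3 groups.

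The miR-143 names were the only ones of the families listed as higher at both times. miR-143-3p, the usual guide strand of the smooth muscle miRNA in vertebrates, was listed at 0 in the control, at a mean of 18.8 RPM at 6 h and at 7.14 RPM at 48 h. At 6 h its 3549 reads divide as 23.6 RPM in the library of 54.4 M reads and 32.7 RPM in that of 69.3 M reads, with the library of 96.9 M reads under 20 RPM. At 48 h its 1326 reads came from the library of 61.9 M reads, at 21.4 RPM. The name was therefore above the floor in 2 of 3 libraries at 6 h, 1 of 3 at 48 h and 0 of 3 in the control.

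The name miR-143, whose counts were within 5.07% and 5.43% of those of miR-143-3p at 6 h and 48 h, had the same pattern. It stood at 22.3 and 31.1 RPM in the same 6 h libraries and at 20.3 RPM in the same 48 h library, and its group mean of 6.76 RPM was the lowest among the 194 listed names with reads at 48 h. On the deposited means the log2 ratio of 48 h to 6 h was -1.39 for miR-143-3p and -1.40 for miR-143. With libraries under the floor anywhere from 0 to 20 RPM, it could lie from -1.83 to 0.13 and from -1.86 to 0.17, so the columns do not settle a direction between the times. Of the 6 heat libraries, 3 were above the floor, at 32.7 RPM at most for either name. The 6 h mean of miR-143-3p was 0.938 times a control held at the floor, and the 48 h mean 0.357 times.

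**Figure D3:**
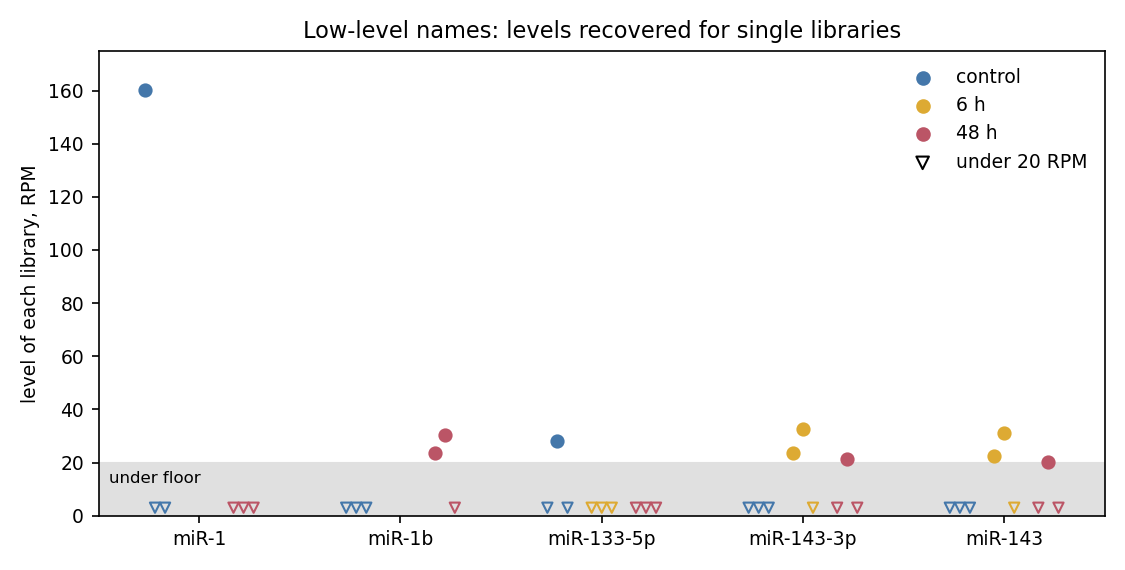
Levels in RPM recovered for single libraries for the 5 low-level names, by group; filled points are libraries with reads, open triangles in the grey band are libraries read as under the 20 RPM floor and carry no level. Apart from miR-1 at 160 RPM in 1 control library, every filled point lies between 20.3 and 32.7 RPM.

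Across the 9 names, 7 were listed as higher and 2 as lower at 48 h by the authors' q-value under 0.05 and a 2-fold difference, and 2 as higher and 1 as lower at 6 h. Of 415 names at 48 h, the number tested as inferred from the deposited q-values, 69.9% were called, 43.1% as higher and 26.7% as lower. Of 403 names at 6 h, inferred in the same way, 68.2% were called, 38.7% as higher and 29.5% as lower. The 9 names were taken from tables that list called names only, so that all 9 are called at 48 h is given by the choice. Among the 290 names listed at 48 h, 61.7% were higher.

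A stricter call asked for a 2-fold difference with every library that could lie under the floor counted against the difference, at 0 on the higher side and at 20 RPM on the lower side. At 48 h it kept 3 names as higher (miR-1c, miR-1-3p and miR-1a-3p) and miR-1 as lower, 4 of the 9, beside 30.7% of all listed names, 20.7% as higher and 10% as lower. At 6 h it kept 0 of the 3, beside 29.5% of all listed names, 18.9% as higher and 10.5% as lower. Counting names that share reads once left 1 higher and 1 lower by this call at 48 h, miR-1a-3p for its group and miR-1.

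Among names with reads in both groups at 48 h, the 4 miR-1 names were all higher, with a median log2 ratio of 1.31, beside 58 of 73 higher over all such names. The median log2 ratio of those 58 was 1.32. miR-1a-3p ranked 31 of the 58 by its ratio and miR-1c-3p 47. The miR-1a-3p ratio thus lay in the middle of the listed increases, while its level was among the highest listed.

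The names nearest to miR-1a-3p in their 48 h log2 ratio, over the control and 48 h groups, were miR-125b-5p, miR-71, miR-71c-5p, miR-2004 and miR-2004-3p. They were the nearest 5 of 20 names listed at 48 h and not at 6 h with at least 100 RPM in both groups, and their log2 ratios lay within 0.0041 to 0.031 of that of miR-1a-3p. At 48 h miR-71 and miR-71c-5p had close means (21861 and 22784 RPM), as had miR-2004 and miR-2004-3p (1703 and 1650 RPM). The 5 names may therefore be fewer separate measurements, and names that share reads were not joined here. In the 48 h library of 113 M reads miR-71c-5p held 0.464 to 0.676 of its group mean and miR-2004 0.149 to 0.387. The corresponding range for miR-1a-3p, 0.609 to 0.809, was higher than that of miR-2004. With 2 groups compared, a like ratio is a weak measure of a like pattern.

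**Figure D4:**
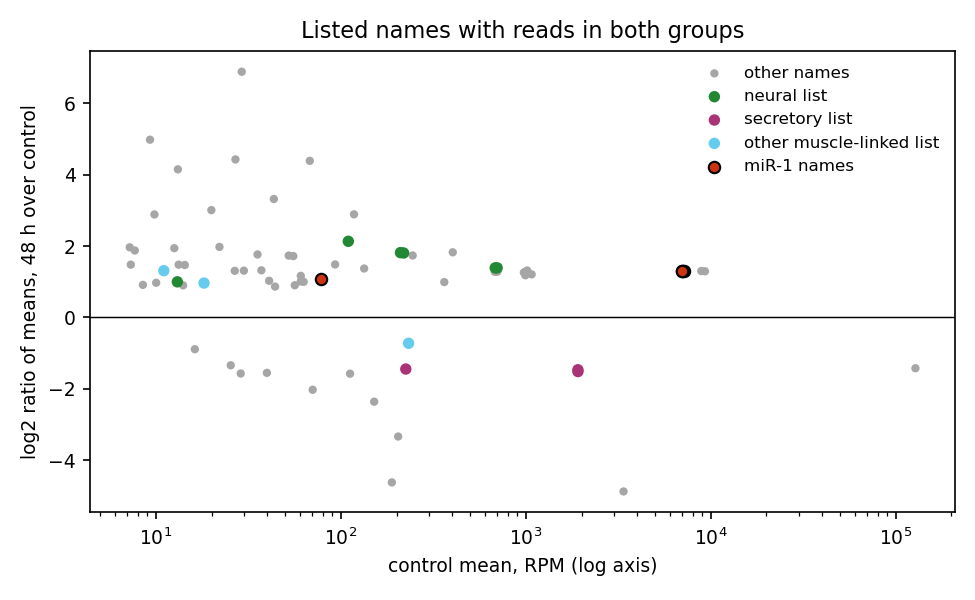
Log2 ratio of means (48 h over control) against the control mean in RPM on a log axis for the 73 listed names with reads in both groups, 1 point per name; miR-1 names and 3 lists are coloured. The abundant miR-1 names lie at a log2 ratio of 1.31, on the higher side, where 58 of the 73 names lie. The neural names lie on that side too, the secretory names on the lower side and the other muscle-linked names on both sides.

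Other muscle-linked names gave no call that held by the stricter rule. Of a list of 15 miRNA numbers linked to muscle in vertebrates, 6 names were listed at 6 h (5 higher, 1 lower) and 5 at 48 h (3 higher, 2 lower), and 0 passed the stricter call at either time. Over all listed names 56.7% were higher at 6 h and 61.7% at 48 h, and 29.5% and 30.7% passed the stricter call. With so few names, these counts do not set the list apart from the rest. The miR-206 and miR-206-3p counts at 6 h differed by less than 15% and were taken to share reads. miR-206, the vertebrate skeletal muscle relative of miR-1, was listed at 0 in the control and at 12.3 RPM at 6 h, all from the library of 96.9 M reads at 36.8 RPM. miR-206-3p had 35.0 RPM in that same library at 6 h and 33.7 RPM in the library of 61.9 M reads at 48 h, the library that also held miR-143-3p. At 6 h, the libraries with miR-206 and those with miR-143-3p were different ones. miR-29b, known for lowering collagens in mammals, had 232 RPM in the control and 141 RPM at 48 h. miR-222-3p, a vessel wall miRNA in mammals, had 18.2 RPM in the control, 37.3 RPM at 6 h and 35.5 RPM at 48 h. miR-222 had 11.0 RPM in the control, 30.7 RPM at 6 h and 27.4 RPM at 48 h, a 48 h ratio of 2.48. Its control reads came from the library of 109 M reads alone. The list also holds miR-145, miR-208, miR-499 and miR-486. No name with these numbers was listed at either time, so their levels were not analysed here.

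Names on the lists for other cell types were listed at 48 h too. Only called names are listed, so that each listed name is higher or lower is given by the listing. Of all 290 names listed at 48 h, 61.7% were higher. By the stricter call 20.7% were higher and 10% lower. All 10 listed names of the neural list were higher, 6 of them by the stricter call. With names that share reads counted once these are 7 and 4, and their summed mean level was 1041 RPM in the control and 3393 RPM at 48 h. Of the 10 names, 5 were read in 2 or more of the 48 h libraries. The 6 names by the stricter call were all miR-7 or miR-124 names. miR-7a, 1 of the 6, was read in the library of 61.9 M reads alone. The shares over all 290 names are without joining, so they stand beside the 10 and 6 only. miR-124-3p, enriched in neurons, had a ratio of 2.62. The 4 secretory miR-375 names were lower, and the 3 left with shared reads counted once summed to 2145 RPM in the control and 752 RPM at 48 h. The 3 epithelial names listed at 48 h were all at 0 in the control and summed to 1468 RPM at 48 h, of which miR-429 made up 1364 RPM. The 2 epithelial names listed at 6 h went opposite ways, both by the stricter call. miR-8 went from 69.8 RPM in the control to 0 at 6 h. miR-194-5p went from 0 to 51.6 RPM, all from the 6 h library of 69.3 M reads. The 2 blood and immune names listed at 48 h were each read in 1 library and were at 0 in the control. At 6 h the neural list had 2 higher and 2 lower names, and 0 passed the stricter call. Of all names listed at 6 h, 56.7% were higher, and by the stricter call 18.9% were higher and 10.5% lower. The secretory list was already lower at 6 h, with 3 of its 4 names lower, all 3 by the stricter call, and a sum of 830 RPM with shared reads counted once. The part of these cell types in the miR-1 result was not tested.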

How the data were processed

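The authors deposited 1 table per heat group. Read counts are given per miRNA and group, per the file headers, which the authors pooled over 3 libraries. The deposited expression column names no unit, and RPM is inferred. Its values can be written as the mean of 3 library RPM values, with 0.001 for a library at 0. The authors' log2 ratio is, on the values, that of pooled counts scaled to pooled totals, with 0.5 for 0. The deposited p-value and q-value come from a test that is not named. The numbers of names tested, 403 and 415, are inferred as the smallest that fit the ratios of q to p. Of these, 128 and 125 were not listed and were not analysed here. RNA of each individual was extracted with Trizol, size-selected at 18 to 30 nt and sequenced by HiSeq, per the labels' protocols. The sources used here do not state the trimming, aligner, miRNA database or build, and no sequence was used.

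Library totals are the 3 densest ratios of count to summed RPM in a group. Levels of single libraries are the solutions of count and mean for these totals, each library at 0 or at least 20 RPM. The procedure was also run on simulated data built with these totals and this floor. That run takes the floor as given, so it cannot test it. Python 3.11.15, NumPy 2.4.6, pandas 2.3.3, SciPy 1.17.1 and matplotlib 3.10.9 were used. The tables hold group values only, so no test over replicates was run. Alternatives changed the scaling, the floor, the filter on low values (10 or 100 RPM), the joining of names and the libraries kept. Members, lists and rules were chosen with earlier results of these data known: all 9 names are described, with the 5 nearest in ratio to miR-1a-3p and up to 5 names per list.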

Additional observations from a re-analysis of the deposited data

How the results depend on the processing

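No paired analysis was possible because the tables give 1 pooled value per group and no value per library, and edgeR and DESeq2 fits were not run for the same reason. Counting error was small for the abundant names at these read counts, and the inferred 20 RPM floor limits the 5 scarce ones. At 48 h the 7 higher names became 4 with means below 20 RPM set to 20 RPM, 4 when 100 RPM was asked of the higher group, 4 with names within 15% counted once and 3 by the stricter call. The 2 lower names became 1 with the floor, 1 with at least 10 RPM, 0 with at least 100 RPM and 1 by the stricter call. At 6 h the 2 higher names became 0 with the floor, 0 with at least 100 RPM, 1 with names joined at 15% and 0 by the stricter call, and the 1 lower name became 0 with the floor, with either filter and by the stricter call. The miR-1a-3p log2 ratio of 1.31 was 1.32 on pooled counts, 1.27 with the 5 most abundant names left out of the totals and 1.27 on the sum of listed reads. In comparisons chosen after seeing the data, it was 0.60 to 1.01 for the deepest 48 h library alone and 1.44 to 1.57 for the mean of the other 48 h libraries. Leaving out 1 library at a time, the columns allow 1 to 7 higher and 1 to 2 lower names at 48 h, 2 higher and 0 to 1 lower at 6 h, and log2 ratios from -0.40 to 3.82 for miR-1a-3p, -0.41 to 3.83 for miR-1-3p and for miR-1c, and -0.62 to 2.81 for miR-1c-3p. The lowest of these log2 ratios arise if the 48 h library of 57.2 M reads held none and that of 61.9 M reads is left out. With all libraries kept, the 4 names with reads in both groups at 48 h kept their direction in 20 of 20 alternatives. This count is no measure of robustness. Neither the floor nor 1 RPM added to both means can reverse a direction, and the pooled-count ratio is the one the authors listed by. Leaving out the 5 most abundant names and using the sum of listed reads moved 48 h log2 ratios by -0.048 and -0.044 only. The abundant names also share reads. With means below 20 RPM set to 20 RPM, the log2 ratio was 0 for miR-1b, miR-133-5p and the miR-143 names in each comparison that lists them, 48 h against 6 h included. The sum of listed reads moved all 6 h log2 ratios by 2.91 and leaving out the 5 most abundant moved them by -0.23.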
